A study of Homo sapiens with 9 samples.

Results

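The genes described here are the subunits of chromatin assembly factor 1 (CAF-1) and the chaperones that bring new histones H3 and H4 to it, 10 genes of the 26186 in the table. They were taken by symbol: CHAF1B, CHAF1A, RBBP4, RBBP7, ASF1A, ASF1B, NASP, TONSL, HAT1 and DNAJC9, each of which matched 1 identifier in GENCODE 29. Their polyadenylated RNA was counted in MCF10A cells, an untransformed line of human breast epithelium. The cells carried a lentivirus with a short hairpin RNA (pLKO.1), had been under 2 µg/mL puromycin since 24 hours after transduction, and were collected on day 3 after infection. The 9 libraries form 3 groups of 3: a first hairpin against CHAF1B (shCHAF1B-1), a second hairpin against CHAF1B (shCHAF1B-2) and a hairpin against green fluorescent protein as the control (shGFP). All 3 groups had gone through infection and selection, and no uninfected cells were in the groups compared. Whether replicates came from separate cultures is not stated in the labels. The p-values therefore cover the variation among these 9 libraries alone, and it may be technical.

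When DNA is copied, each new strand needs fresh nucleosomes, and the first step is to lay down an H3-H4 tetramer. New H4 is acetylated in the cytoplasm by HAT1, which works with RBBP7, and the H3-H4 pairs are held in a soluble store by NASP. ASF1A and ASF1B carry them to CAF-1, whose large subunit CHAF1A binds the sliding clamp PCNA behind the fork. CHAF1B and RBBP4 complete CAF-1. TONSL, with its partner MMS22L, binds new H4 before it is methylated and acts in the repair of broken forks. DNAJC9 is a heat shock co-chaperone that also binds H3-H4. Several of these genes are known as genes of dividing cells, with most RNA around S phase.

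Totals ranged from 24339914 to 31819468 counts per library. All 12 markers of basal breast epithelium had counts in every library, at a summed level of 12612 to 13944 CPM in the knockdown libraries and 13613 to 14661 CPM in the shGFP libraries (CPM here is the count scaled to library size with TMM factors, and all levels are in it). The library shCHAF1B-1 replicate 3 stood apart by the summed level of its B lymphocyte markers. This was 396.0 CPM, against 3.86 to 4.81 CPM in the other 5 knockdown libraries and 2.47 to 3.79 CPM in the shGFP libraries. All 15 of 15 had counts there, against 10 to 13 in the other 5 knockdown libraries and 12 to 14 in the shGFP libraries. Not each of the 15 was raised there: CR2 had 9 to 13 counts in the shCHAF1B-1 libraries and 29 to 48 in the shGFP libraries. Of 9 T lymphocyte markers, 2 were in the table, CD4 and LCK. They summed to 3.35 CPM in shCHAF1B-1 replicate 3 and to at most 0.210 CPM in each other library. This sum rests on 1 gene: LCK had 0 to 83 counts in the shCHAF1B-1 libraries, and CD4 had 2 in each of them. Of 8 fibroblast markers 6 were in the table, with sums of 14.4 to 17.3 CPM in the knockdown libraries and 17.5 to 17.7 CPM in the shGFP libraries. Single markers moved in opposite directions under these sums. KRT5, a basal keratin, averaged 4082.1 CPM with shCHAF1B-1, 4039.5 with shCHAF1B-2 and 7264.0 in shGFP, and LAMB3, a laminin chain, 2788.9, 2575.1 and 1003.3 CPM in these groups. Among the fibroblast markers DCN averaged 1.65 CPM with shCHAF1B-1, 1.94 with shCHAF1B-2 and 9.38 in shGFP, and COL1A1 14.1, 13.4 and 7.69 CPM. These 4 were chosen after their values were seen, and their part in the results was not tested.

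Promoters of 5 of these genes are shown: CHAF1B, CHAF1A, RBBP4 and ASF1B, which were lower in the knockdown libraries, and ASF1A, which was higher. RBBP7 and NASP were also lower and are not shown, and NASP held none of the words marked here. HAT1, which was lower with shCHAF1B-1, is not shown either and also held none of them. The 5 lines are thus no basis for linking these words to the direction of change. Promoters of 9 of the 10 genes were taken from the RefSeq table used (GRCh38.p14, 250 bases before to 50 after the start). TONSL, which was also lower, was left out of this search, so nothing is said here of its promoter. Each line gives 200 bases, 5′ to 3′ on the strand of the gene, the last 20 of them after the start. Capitals mark E2F-type words, which are the word TTCCCGC, the word TTGGCGC, the word TTCGCGC and the word TTGCCGC, and the CHR word TTTGAA, all on either strand. Such words are known from promoters of genes of the cell cycle.
CHAF1B, chr21:36385212-36385411, plus strand: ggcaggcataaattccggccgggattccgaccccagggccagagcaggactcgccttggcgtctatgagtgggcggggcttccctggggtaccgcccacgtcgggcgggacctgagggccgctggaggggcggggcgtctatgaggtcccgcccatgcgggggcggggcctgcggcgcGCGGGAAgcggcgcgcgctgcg
CHAF1A, chr19:4402460-4402659, plus strand: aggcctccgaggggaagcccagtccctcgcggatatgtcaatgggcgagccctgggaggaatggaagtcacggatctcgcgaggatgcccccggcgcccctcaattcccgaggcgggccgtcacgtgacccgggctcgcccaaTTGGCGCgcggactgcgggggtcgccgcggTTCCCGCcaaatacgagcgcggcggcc
RBBP4, chr1:32651028-32651227, plus strand: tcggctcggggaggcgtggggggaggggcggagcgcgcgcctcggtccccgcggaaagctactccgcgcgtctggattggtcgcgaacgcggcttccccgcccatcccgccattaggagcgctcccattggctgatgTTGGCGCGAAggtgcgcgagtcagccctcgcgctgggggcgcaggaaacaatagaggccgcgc
ASF1B, chr19:14136570-14136769, minus strand: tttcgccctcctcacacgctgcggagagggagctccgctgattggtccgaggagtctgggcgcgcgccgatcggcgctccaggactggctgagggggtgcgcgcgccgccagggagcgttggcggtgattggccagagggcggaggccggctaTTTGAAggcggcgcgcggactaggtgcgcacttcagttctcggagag
ASF1A, chr6:118893972-118894171, plus strand: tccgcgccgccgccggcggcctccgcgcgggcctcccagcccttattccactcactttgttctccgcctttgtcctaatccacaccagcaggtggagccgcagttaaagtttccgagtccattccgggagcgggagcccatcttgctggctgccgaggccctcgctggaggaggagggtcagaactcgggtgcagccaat

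Counted over the whole window of the table, the E2F-type words occurred in 13.0% of all 35116 promoters and in 18.8% of the 15372 promoters of genes tested here. The CHR word occurred in 15.2% and 10.5%, and the word CCAAT, searched on both strands, in 34.6% of each. CHAF1A held TTGGCGC from -37 and TTCCCGC from -7, counted from the start. Of its 4 CCAAT words, those from -41 and, on the other strand, from -38 overlap this TTGGCGC. RBBP4 held TTGGCGC from -43 and TTCGCGC on the other strand from -40, which overlap, and CHAF1B held TTCCCGC on the other strand from -2 to 5. DNAJC9 held TTCGCGC on the other strand from -15, and RBBP7 the same word in its second listed promoter only. ASF1B held TTTGAA from -27 and no E2F-type word in these letters. The windows of ASF1A, NASP and HAT1 held neither kind of word, and each held CCAAT once, which ASF1A has after its start, at 16 to 20. A match describes the letters and does not show that a factor binds there.

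Levels were compared between genes per length of exon, in CPM per kb of the union of a gene's exons. RBBP7 was highest in every group, at 27.5 ± 0.385 CPM per kb with shCHAF1B-1, 28.6 ± 1.35 with shCHAF1B-2 and 33.6 ± 0.281 in shGFP (SD, n = 3 each). NASP was second in every group, at 15.7 ± 0.446 CPM per kb with shCHAF1B-1, 16.2 ± 0.365 with shCHAF1B-2 and 23.7 ± 1.52 in shGFP. In shGFP the next were ASF1B at 17.5 ± 0.593, HAT1 at 14.4 ± 0.739, TONSL at 12.3 ± 0.807, CHAF1A at 11.9 ± 0.212 and RBBP4 at 11.9 ± 0.181 CPM per kb, of which TONSL, CHAF1A and RBBP4 did not differ beyond their spread. ASF1A at 9.73 ± 0.555, CHAF1B at 7.36 ± 0.585 and DNAJC9 at 6.70 ± 0.670 CPM per kb were lowest in shGFP, and CHAF1B and DNAJC9 overlapped within their spread. Per length, ASF1A thus lay below ASF1B in the control cells. With shCHAF1B-1 ASF1B held 11.9 ± 0.181 and ASF1A 10.8 ± 0.159 CPM per kb; with shCHAF1B-2 ASF1A was the higher, at 12.3 ± 0.801 against 11.2 ± 0.475 CPM per kb for ASF1B. CHAF1B was lowest of the 10 under both hairpins, at 0.643 ± 0.131 CPM per kb with shCHAF1B-1 and 0.626 ± 0.122 with shCHAF1B-2.

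**Figure D1:**
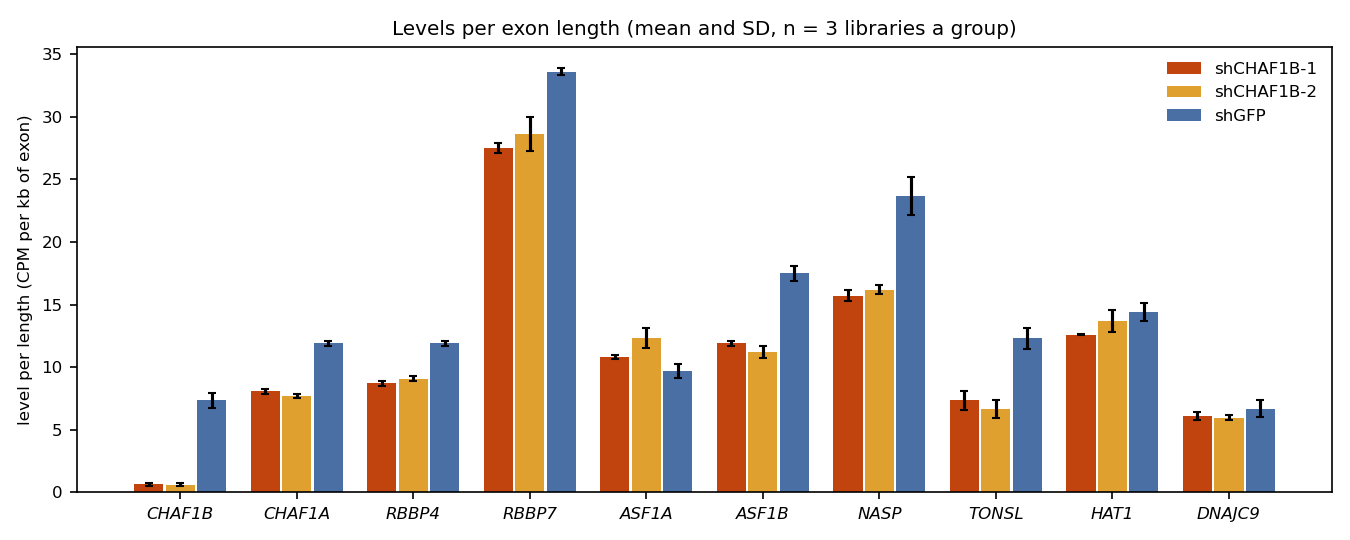
Level per length of each of the 10 genes in CPM per kb of exon, on a linear axis from 0, as the mean of 3 libraries with the SD, for shCHAF1B-1, shCHAF1B-2 and shGFP. RBBP7 is highest in every group, and CHAF1B drops to 0.643 and 0.626 CPM per kb with the hairpins, against 7.36 in shGFP.

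Beside CHAF1B, which the hairpins target, 6 genes were lower under both hairpins, and ASF1A was the only one of the 10 that rose, with shCHAF1B-2. With shCHAF1B-1, 7 of the 9 genes other than CHAF1B fell, with a median log2 fold change of -0.45 over the 9. With shCHAF1B-2, 6 fell and 1 rose, with a median of -0.39. A gene was called at an adjusted p under 0.05 (edgeR's quasi-likelihood test with Benjamini-Hochberg adjustment over all 16235 genes that passed the filter on low counts, which gave every adjusted p below), and all 10 genes passed that filter. Many genes were called in this experiment: 25.2% of all genes tested fell and 27.9% rose with shCHAF1B-1, 24.6% fell and 26.7% rose with shCHAF1B-2, and the median of all genes was 0.00 and -0.01. Without shCHAF1B-1 replicate 3, the library with B lymphocyte transcripts, 8 of the 10 fell with shCHAF1B-1, as with it. The log2 fold change was then -3.52 for CHAF1B, -0.55 for CHAF1A, -0.46 for RBBP4, -0.28 for RBBP7, -0.56 for ASF1B and -0.62 for NASP, with adjusted p-values of 3.4e-10 to 6.7e-04. It was -0.19 for HAT1 (adjusted p = 0.0243), and 0.15 for ASF1A and -0.10 for DNAJC9, which did not pass (adjusted p = 0.126 and 0.341). No member rose with shCHAF1B-1 by edgeR, DESeq2 or limma-voom (0 of 10 each), and 1 of the 10, ASF1A, was higher at an unadjusted p under 0.05. Both comparisons use the same shGFP libraries, so the hairpins are not independent of each other in this respect. In RNA from whole cultures, fewer cells that express a gene and less of its RNA per cell cannot be told apart.

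**Figure D2:**
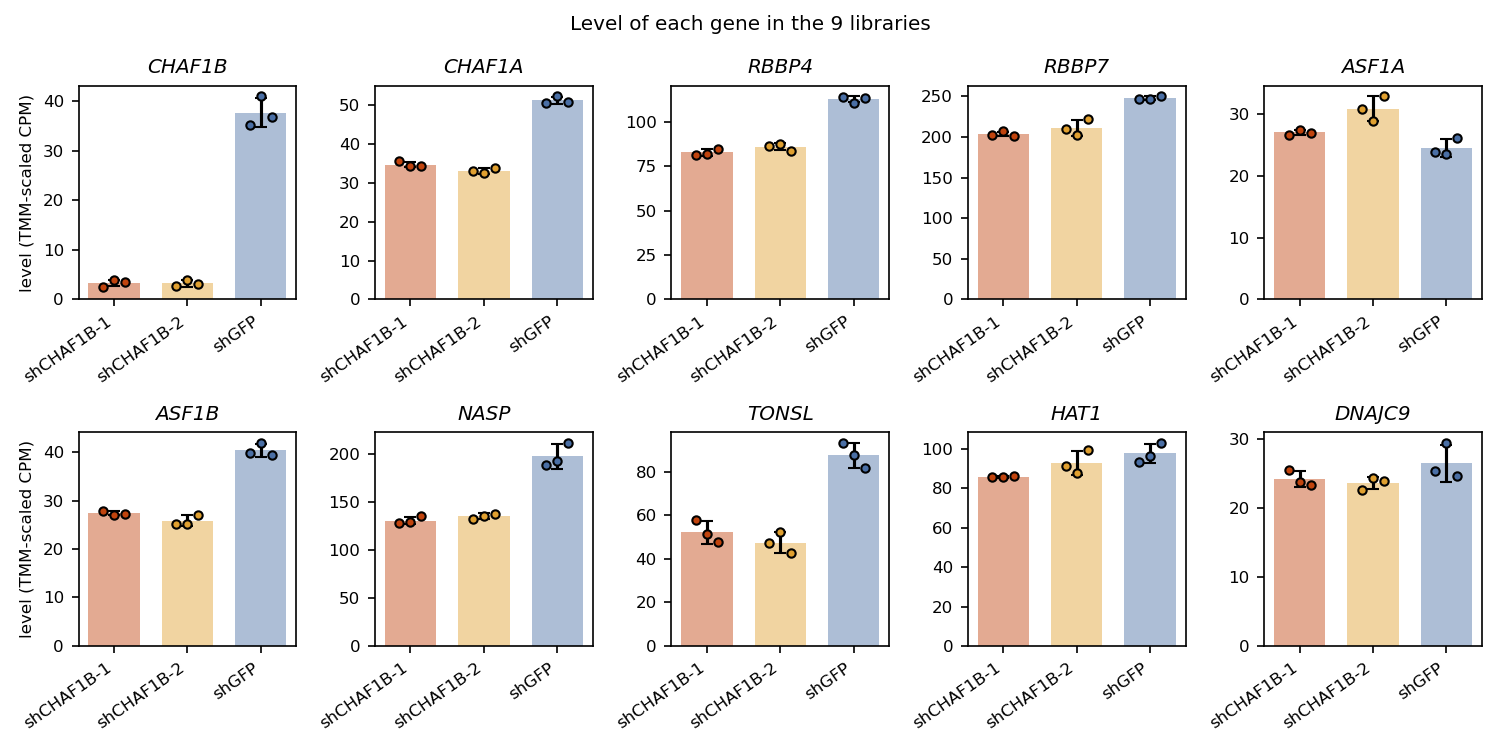
Level of each of the 10 genes in TMM-scaled CPM, on linear axes from 0 that differ between panels, in shCHAF1B-1, shCHAF1B-2 and shGFP; points are libraries, bars the mean and error bars the SD (n = 3). All 6 knockdown libraries lie below all shGFP libraries for CHAF1B, CHAF1A, RBBP4, RBBP7, ASF1B, NASP and TONSL, and above them for ASF1A.

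CHAF1B, the targeted WD-repeat subunit (ENSG00000159259.7, chr21:36385378-36419015, plus strand, GRCh38), held 2.56, 3.88 and 3.43 CPM with shCHAF1B-1 and 2.66, 3.89 and 3.07 CPM with shCHAF1B-2, against 35.2, 41.0 and 36.8 CPM in shGFP. Every knockdown library was thus far below every control library. In both tests CHAF1B had the lowest log2 fold change of all 16235 genes (shCHAF1B-1 gave -3.50 with an SE of 0.133, shCHAF1B-2 gave -3.55 with an SE of 0.136), and 8.82% and 8.54% of its shGFP level remained.

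CHAF1A (ENSG00000167670.15, chr19:4402662-4445018, plus strand), the PCNA-binding subunit, held 35.5, 34.3 and 34.2 CPM with shCHAF1B-1 and 33.0, 32.5 and 33.9 CPM with shCHAF1B-2, against 50.6, 52.3 and 50.8 CPM in shGFP. The groups did not overlap, and the loss was a smaller share than that of CHAF1B: 67.7% and 64.6% of the shGFP level remained. For shCHAF1B-1 and then shCHAF1B-2, here and for the genes below, the log2 fold change was -0.56 (SE 0.0477, adjusted p = 3.7e-07) and -0.63 (SE 0.0481, adjusted p = 1.4e-07). By size, 9.87% and 8.22% of all genes tested had a change this low or lower. Among genes with a mean of at least 1 CPM, the 3 outside the 10 whose log2 level over the 9 libraries was most like that of CHAF1A were SART3, MAPK4 and TAGLN, with a Pearson r of 0.997, 0.997 and 0.996. They differed widely in size of change: the log2 fold change with shCHAF1B-1 and shCHAF1B-2 was -0.47 and -0.51 for SART3, -2.03 and -2.25 for MAPK4, and -1.55 and -1.66 for TAGLN. These r values are a description, since the libraries share their groups.

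RBBP4 (ENSG00000162521.18, chr1:32651142-32686211, plus strand), the histone-binding subunit of CAF-1, held 81.5, 81.7 and 84.9 CPM with shCHAF1B-1 and 86.4, 87.5 and 83.7 CPM with shCHAF1B-2, against 114.1, 110.8 and 113.3 CPM in shGFP. It fell by 0.45 (SE 0.0423, adjusted p = 1.1e-06) and 0.39 (SE 0.0423, adjusted p = 4.1e-06) on the log2 scale. RBBP4 is also a subunit of PRC2, NuRD, SIN3, NURF and MuvB, so its level is not a measure of CAF-1 alone. SYNC, on the opposite strand, shares 18.0% of the exon bases of RBBP4 and had 25 to 57 counts per library. Of 6 RBBP4 pseudogenes annotated, 5 were in the table and held counts equal to 0.857% of those of RBBP4.

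RBBP7 (ENSG00000102054.17, chrX:16839283-16870414, minus strand), the close relative of RBBP4 that partners HAT1, held 202.1, 206.9 and 201.8 CPM with shCHAF1B-1 and 210.5, 202.3 and 222.1 CPM with shCHAF1B-2, against 246.6, 247.2 and 250.4 CPM in shGFP. Every knockdown library was lower, by a smaller step than for RBBP4. It fell by 0.28 (SE 0.0442, adjusted p = 1.0e-04) and 0.23 (SE 0.0442, adjusted p = 6.6e-04).

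Of the carriers upstream of CAF-1, ASF1B fell and ASF1A did not. ASF1B (ENSG00000105011.8, chr19:14119509-14136956, minus strand), the ASF1 form known to follow proliferation, held 27.8, 27 and 27.3 CPM with shCHAF1B-1 and 25.2, 25.2 and 27.1 CPM with shCHAF1B-2, against 39.9, 42.0 and 39.4 CPM in shGFP. The groups were well apart, and 67.8% and 64.0% of the shGFP level remained (log2 fold change -0.56, SE 0.0537, adjusted p = 1.2e-06, and -0.64, SE 0.0543, adjusted p = 3.8e-07). ASF1A (ENSG00000111875.7, chr6:118894220-118909167, plus strand), the form that also serves the H3.3 chaperone HIRA, held 26.7, 27.5 and 27 CPM with shCHAF1B-1 and 30.8, 28.9 and 32.9 CPM with shCHAF1B-2, against 23.9, 23.5 and 26.1 CPM in shGFP. All 6 knockdown libraries lay above the controls, by a narrow margin with shCHAF1B-1. The log2 fold change was 0.14 with shCHAF1B-1 (95% interval 0.01 to 0.28, adjusted p = 0.0724) and 0.33 with shCHAF1B-2 (95% interval 0.19 to 0.47, adjusted p = 6.4e-04). Without shGFP replicate 3, the highest control for ASF1A, the change with shCHAF1B-1 was 0.19 and passed (adjusted p = 0.0321). MCM9, on the opposite strand, shares 5.44% of the exon bases of ASF1A, and since the kit does not mark strand, reads there cannot be told apart.

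NASP (ENSG00000132780.16, chr1:45583846-45618904, plus strand), keeper of the soluble H3-H4 store, held 127.8, 128.8 and 134.6 CPM with shCHAF1B-1 and 131.7, 134.8 and 137.7 CPM with shCHAF1B-2, against 187.7, 192.1 and 211.4 CPM in shGFP. The controls were more spread than the knockdown libraries but lay well above them. NASP fell by 0.60 (SE 0.0509, adjusted p = 4.1e-07) and 0.55 (SE 0.0509, adjusted p = 9.9e-07), so 66.2% and 68.3% remained.

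TONSL (ENSG00000160949.16, chr8:144428775-144444444, minus strand), the reader of new H4, had the largest fall of the 9 genes other than CHAF1B. It held 58.0, 51.2 and 47.6 CPM with shCHAF1B-1 and 47.5, 52.4 and 42.5 CPM with shCHAF1B-2, against 93.4, 87.6 and 81.9 CPM in shGFP. Despite a wide spread within each group, no knockdown library reached the lowest control. The log2 fold change was -0.75 (SE 0.0824, adjusted p = 4.8e-06) and -0.88 (SE 0.0833, adjusted p = 1.2e-06), which left 59.6% and 54.2%. Without shCHAF1B-1 replicate 3, the lowest of its group for TONSL, the change with shCHAF1B-1 was -0.68 (adjusted p = 1.7e-05).

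HAT1 and DNAJC9 changed least with shCHAF1B-2 and in the mean of both hairpins; with shCHAF1B-1 the changes of DNAJC9 and ASF1A were smaller than that of HAT1. HAT1 (ENSG00000128708.12, chr2:171922448-171983682, plus strand), which acetylates new H4, held 85.6, 85.7 and 86.2 CPM with shCHAF1B-1 and 91.6, 87.9 and 99.7 CPM with shCHAF1B-2, against 93.4, 96.7 and 103.3 CPM in shGFP. The shCHAF1B-1 libraries lay below all controls, whereas shCHAF1B-2 overlapped them. HAT1 fell by 0.19 with shCHAF1B-1 (SE 0.0542, adjusted p = 0.00957), and with shCHAF1B-2 the log2 fold change was -0.07 (95% interval -0.19 to 0.05, adjusted p = 0.294). DNAJC9 (ENSG00000213551.4, chr10:73183362-73248862, minus strand) held 25.6, 23.8 and 23.3 CPM with shCHAF1B-1 and 22.6, 24.3 and 23.9 CPM with shCHAF1B-2, against 25.4, 29.5 and 24.6 CPM in shGFP. With shCHAF1B-1 the ranges overlapped, and shCHAF1B-2 lay just below the lowest control, with a call without shGFP replicate 3 (adjusted p = 0.0327). The log2 fold change was -0.13 (95% interval -0.29 to 0.03, adjusted p = 0.150) and -0.17 (95% interval -0.33 to -0.01, adjusted p = 0.0736). FAM149B1, on the opposite strand, shares 24.0% of the exon bases of DNAJC9 and had 595 to 771 counts per library, so the DNAJC9 values are uncertain.

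**Figure D3:**
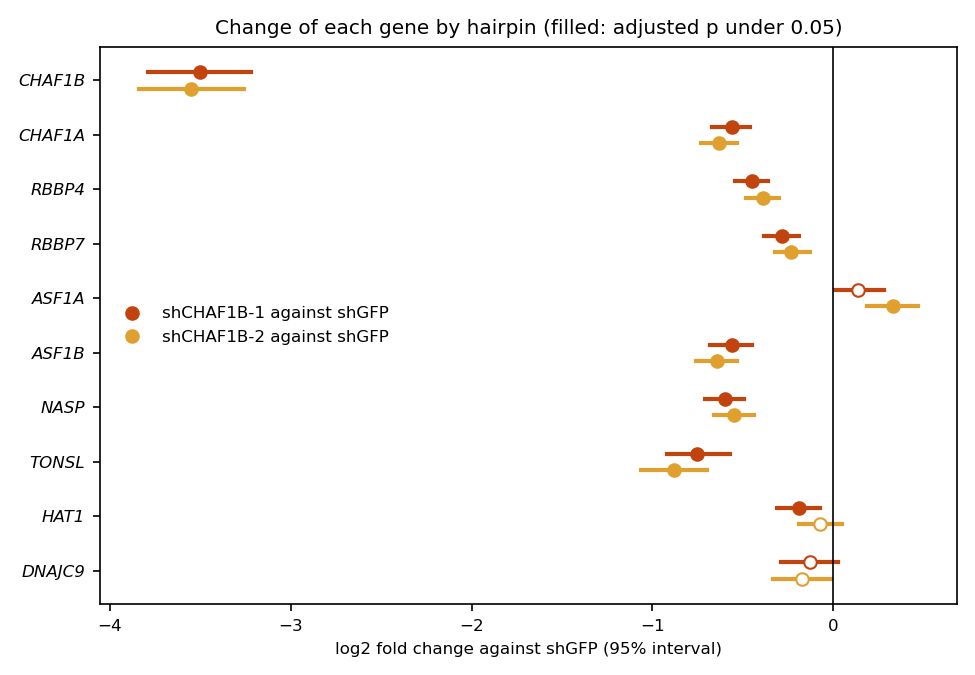
Change of the 10 genes relative to shGFP (log2 fold change, with 95% intervals) under shCHAF1B-1 and shCHAF1B-2; filled points have an adjusted p under 0.05. TONSL has the lowest values after CHAF1B, at -0.75 and -0.88, and ASF1A lies above 0, at 0.14 and 0.33.

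Taking the mean of both hairpins against shGFP, 7 of the 9 genes other than CHAF1B fell, ASF1A rose by 0.24 (SE 0.0557, adjusted p = 0.00229) and DNAJC9 did not pass (-0.15, SE 0.0634, adjusted p = 0.0583). In the same test 27.7% of all genes fell and 29.2% rose. The fall of HAT1 in this mean was small (0.13, SE 0.0467, adjusted p = 0.0287), and it did not pass with DESeq2 or without any 1 of 4 libraries (adjusted p of 0.0546 to 0.161). Those 4 were shCHAF1B-1 replicate 2, shCHAF1B-2 replicate 2, shGFP replicate 2 and shGFP replicate 3. DNAJC9 passed without shGFP replicate 3 (adjusted p = 0.0251) and without shCHAF1B-1 replicate 1 (adjusted p = 0.0438). All 6 knockdown libraries lay below all 3 shGFP libraries for 7 of the 10 genes, against 22.7% of all genes tested. CHAF1B, the hairpin target, is 1 of these 7. The 6 knockdown libraries lay above all 3 shGFP libraries for 1 gene, ASF1A, against 25.8%.

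Between the hairpins, shCHAF1B-2 against shCHAF1B-1, 0 of the 10 genes and 0.0% of all genes passed in edgeR, with 1800 genes at an unadjusted p under 0.05. DESeq2 called 1 gene, SRP9, and limma-voom called 0. Of the 10 genes, ASF1A had the lowest unadjusted p: shCHAF1B-2 was higher than shCHAF1B-1 by 0.19 on the log2 scale (95% interval 0.05 to 0.32, unadjusted p = 0.0110, adjusted p = 0.423). HAT1 differed by 0.12 (95% interval 0.00 to 0.23, adjusted p = 0.453) and TONSL by -0.14 (95% interval -0.32 to 0.05, adjusted p = 0.537). For CHAF1A the difference was -0.07 (95% interval -0.17 to 0.04, adjusted p = 0.597), and for CHAF1B -0.05 (95% interval -0.41 to 0.32, adjusted p = 0.930).

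Ratios of 2 genes within a library need no scaling and were tested for 3 pairs, with 6 knockdown against 3 shGFP libraries (two-sided exact permutation test). The smallest p this design can give is 0.0238, and each pair reached it, also after adjustment over the 3 pairs. For CHAF1B to CHAF1A the p adds nothing, since the hairpins target CHAF1B. For ASF1A to ASF1B it restates that ASF1A lay above and ASF1B below all shGFP libraries. The test treats the libraries of both hairpins as 1 group. CHAF1B had 0.0726, 0.113 and 0.101 counts per CHAF1A count with shCHAF1B-1 and 0.0813, 0.120 and 0.0911 with shCHAF1B-2, against 0.696, 0.785 and 0.726 in shGFP. The count ratio of these 2 transcripts thus differed by -2.95 on the log2 scale, and the subunit proteins were not measured here. ASF1A had 0.959, 1.02 and 0.990 counts per ASF1B count with shCHAF1B-1 and 1.22, 1.15 and 1.21 with shCHAF1B-2, against 0.598, 0.561 and 0.663 in shGFP. This is a difference of 0.84 on the log2 scale, a 1.79-fold higher ratio. The 3 shCHAF1B-2 ratios also lay above the 3 shCHAF1B-1 ratios, where 3 against 3 libraries cannot give a two-sided exact p under 0.1. Per exon length the ASF1A to ASF1B ratio was 0.994 over both hairpins and 0.555 in shGFP. RBBP7 had 2.48, 2.53 and 2.38 counts per RBBP4 count with shCHAF1B-1 and 2.44, 2.31 and 2.65 with shCHAF1B-2, against 2.16, 2.23 and 2.21 in shGFP. That shift was small, 0.16 on the log2 scale, with no overlap.

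**Figure D4:**
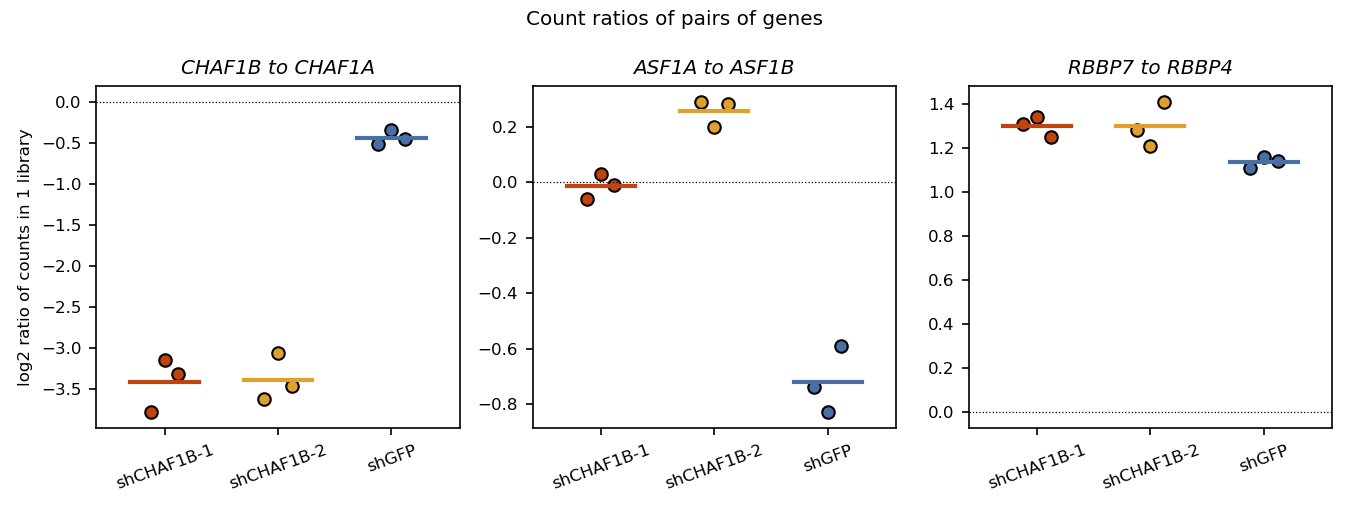
Log2 ratio of the counts of 2 genes in each library (points) with the group mean (line), for CHAF1B to CHAF1A, ASF1A to ASF1B and RBBP7 to RBBP4 in shCHAF1B-1, shCHAF1B-2 and shGFP; the axes differ between panels and the dotted line is a ratio of 1. The ASF1A to ASF1B ratio lies near 0 with shCHAF1B-1 and at 0.20 to 0.29 with shCHAF1B-2, against -0.83 to -0.59 in shGFP.

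Genes that work beside the 10 were described from 8 lists, in the mean of both hairpins against shGFP, where the median of all genes was -0.01. In this test 27.7% of all genes fell and 29.2% rose. Of 10 genes for PCNA and the complexes that load or unload it, 8 fell and 1 rose (median -0.46). The median was -0.50 for the 10 chaperone genes, and -0.42 for the 9 other than CHAF1B, the hairpin target. RFC4, a clamp loader subunit, fell by 0.90 (SE 0.0533, adjusted p = 7.7e-09) to 25.5 ± 1.09 CPM in the knockdown libraries, against 47.7 ± 3.14 CPM in shGFP (SD, n = 6 and n = 3). RFC3, another subunit, fell by 0.75, ATAD5, which unloads the clamp, by 0.60 and RFC5 by 0.50. CHTF8, of an alternative loader, rose by 0.24, and PCNA itself did not pass, at 173.2 ± 11.9 CPM in the knockdown libraries and 163.9 ± 8.48 CPM in shGFP (log2 fold change 0.08, adjusted p = 0.208).

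A further list held 12 genes that act on H3-H4 or on ASF1, at forks or elsewhere in the cell. Of these, 7 fell and 3 rose (median -0.21), beside the same 27.7% and 29.2% of all genes. MMS22L, the partner of TONSL, fell by 0.87 (SE 0.0574, adjusted p = 2.4e-08) to 22.4 ± 2.32 CPM in the knockdown libraries, against 40.8 ± 1.72 CPM in shGFP, a change close in size to that of TONSL (-0.82, SE 0.0696). MCM2, the helicase subunit that holds parental H3-H4, fell by 0.75, SSRP1, of the chaperone FACT, by 0.46, and CDAN1, which keeps ASF1 in the cytoplasm, by 0.47. The 3 that rose were TLK1 (0.24) and TLK2 (0.15), the kinases that act on ASF1, and the acetyltransferase KAT5 (0.18). With upper-quartile scaling, and with DESeq2, 1 of them passed. With shCHAF1B-2 alone TLK1 passed, and TLK2 and KAT5 did not (adjusted p = 0.105 and 0.157).

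Genes of the complexes that share RBBP4 or RBBP7 with CAF-1 were counted in the same way, beside 27.7% of all genes that fell and 29.2% that rose. With so few genes a list, these counts are a description, and nothing is read from them about a complex as a whole. Of 4 genes of PRC2, the H3K27 methyltransferase, 1 fell: the catalytic subunit EZH2, by 0.30 (SE 0.0439, adjusted p = 5.2e-05). Of 11 NuRD genes 5 fell and 2 rose (median -0.07): GATAD2A fell by 0.68, MBD3 by 0.40, MTA1 by 0.22, MTA3 by 0.16 and CHD3 by 0.10, and CHD4, a remodeller, and GATAD2B rose by 0.12 each. Of these NuRD genes, 1 rose without shCHAF1B-1 replicate 3 and 0 rose with upper-quartile scaling. With shCHAF1B-2 alone CHD4 and GATAD2B did not pass (adjusted p = 0.13 and 0.184). With shCHAF1B-1 alone MTA1 and CHD3 did not pass (adjusted p = 0.313 and 0.117). Of 8 SIN3 genes 3 fell and 4 rose (median 0.14): SAP130 fell by 0.58, SAP30 by 0.23 and SAP18 by 0.17, while ING2 rose by 0.78, SUDS3 by 0.33, ING1 by 0.27 and SIN3B by 0.25. With shCHAF1B-2 alone SAP30 did not pass (adjusted p = 0.219). Of 3 NURF genes SMARCA1 rose by 0.61 (SE 0.137, adjusted p = 0.00178), and BPTF and SMARCA5 did not pass. Of 4 genes of MuvB, a regulator of genes of the cell cycle, 3 fell, LIN9 by 0.33, LIN52 by 0.19 and LIN54 by 0.17. Of these 4, 1 fell with DESeq2 and 2 fell without shCHAF1B-1 replicate 3. With shCHAF1B-2 alone LIN9 passed, and LIN54 and LIN52 did not (adjusted p = 0.0891 and 0.171).

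Of 7 replication-independent chaperones of H3.3, the variant also placed outside S phase, 3 fell and 1 rose (median -0.05), beside the same 27.7% and 29.2% of all genes. HIRA, the partner of ASF1A, fell by 0.54 (SE 0.0603, adjusted p = 3.9e-06) to 11.9 ± 0.539 CPM in the knockdown libraries, against 17.4 ± 0.478 CPM in shGFP. DEK fell by 0.23 and UBN1 by 0.17. DAXX rose by 0.15 (SE 0.0486, adjusted p = 0.0166), a call that ended with upper-quartile scaling. With shCHAF1B-2 alone DAXX did not pass (adjusted p = 0.114).

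**Figure D5:**
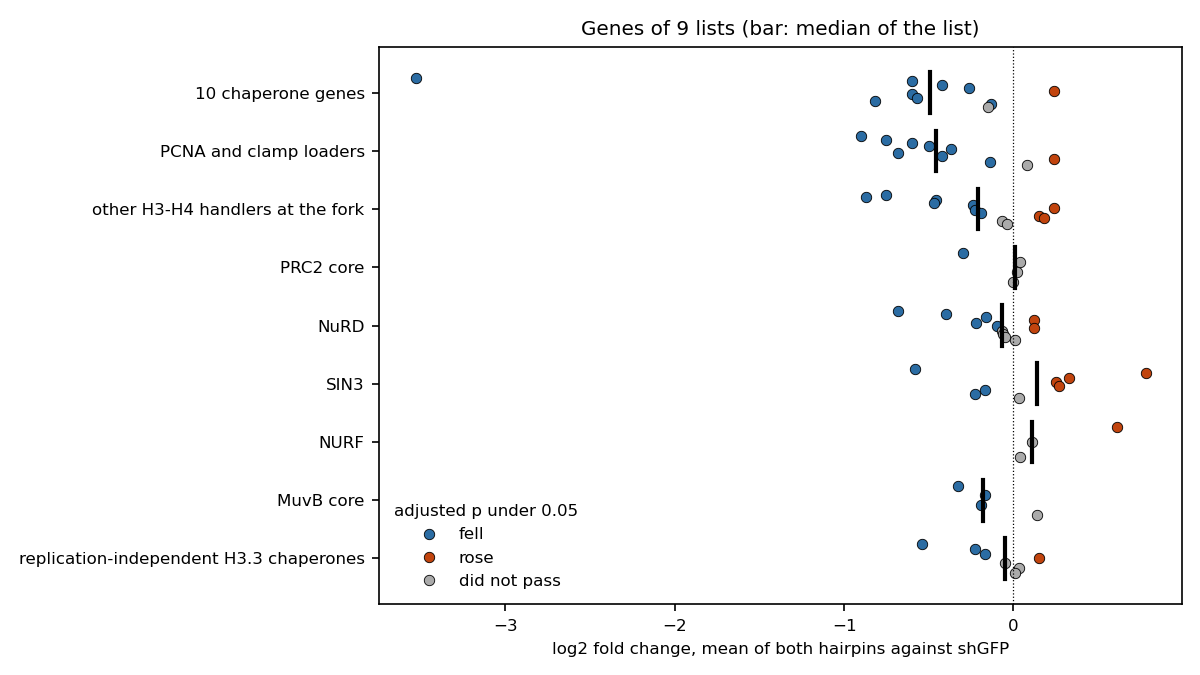
Log2 fold change of each gene in the mean of both hairpins against shGFP, for the 10 chaperone genes and 8 further lists; blue points fell, red points rose (adjusted p under 0.05), grey points did not pass, and the bar is the list's median. The medians run from -0.50 for the 10 genes and -0.46 for PCNA and its loaders to 0.14 for SIN3. Without CHAF1B, the hairpin target, the median of the other 9 chaperone genes is -0.42.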

How the data were processed

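The authors deposited raw counts per gene, whole numbers that were not normalized, for 9 libraries of polyadenylated RNA (TruSeq RNA kit, per the labels' protocols, which does not mark strand). STAR 2.5.3a, HTSeq 0.8.0 and DESeq2 1.18.1 are listed, per the submitters' processing notes, beside the builds hg38 and mm10; what each was used for is not given in the sources used here, and the identifiers are human. The smallest row total was 7, and whether the authors dropped rarer genes is not stated. GENCODE 29 gave symbols for 26149 identifiers, and 37 did not match.

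The counts were filtered with filterByExpr (minimum count 10, minimum total 15, proportion 0.7; 16235 genes kept), scaled by TMM and tested in edgeR 4.0.16 (R 4.3.3) with the quasi-likelihood test in 1 fit of the 3 groups. SEs were derived from the F statistics. The biological coefficient of variation was 6.24%. Alternatives were RLE and upper-quartile scaling, DESeq2 1.42.0, limma-voom 3.58.1, 2 other filters, a fit of only the groups compared, a block for replicate number, an adjusted p of 0.01, and each library left out in turn; settings for the 8 lists of other genes were added after seeing the data. Ratios used counts plus 0.5 and SciPy 1.17.1. The steps were tested on simulated data. Replicates of a group differed by more than sampling noise (chi-square per degree of freedom 4.08 to 14.2), so each counted once.

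All 10 genes are named; of each other list up to 4 genes with the smallest adjusted p are named, plus any that make up a count of at most 5; PCNA, BPTF and SMARCA5 complete their lists, and SRP9 was chosen after its value was seen. The genes, lists and motifs were chosen with earlier results of these data known.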

Additional observations from a re-analysis of the deposited data

How the results depend on the processing

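The counts over the 10 genes and over all genes stayed within 1.5 times of the reported ones under the alternatives run, with 2 exceptions; those of the other lists stand beside their results. For shCHAF1B-1 against shGFP, the number of the 10 genes that rose was 0 to 1 with each library left out in turn, with 1, ASF1A, without shGFP replicate 3. Between the hairpins, DESeq2 called 1 gene of the whole table. With libraries left out, 8 of the 10 genes fell each time for shCHAF1B-1, 7 to 8 for shCHAF1B-2 and 7 to 9 for their mean. The replicate numbers were not used as a pairing in the main fit, since the labels name no shared culture or day. Deviations from the group mean correlated at -0.138 to 0.1 for same-numbered libraries and at -0.217 to 0.22 for the others. Such values cannot show whether libraries were handled together. With the replicate block 8305, 7981 and 8913 of all genes passed in these comparisons, against 8632, 8324 and 9231 without it, and 0 between the hairpins; the block changed no call of the 10 genes. DNAJC9 passed with upper-quartile scaling for shCHAF1B-2 (-0.20, adjusted p = 0.0298) and for the mean (-0.18, adjusted p = 0.0219), and with a filter of 1 CPM in 3 libraries (adjusted p of 0.0494 and 0.0395); HAT1 in the mean did not pass with no filter (adjusted p = 0.0506) or DESeq2 (adjusted p = 0.0694). The cause was not tested.

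Leaving out a library turned the sign of uncalled differences between the hairpins: CHAF1B was 0.10 without shCHAF1B-1 replicate 2 and 0.07 without shCHAF1B-2 replicate 1 (range -0.21 to 0.10), and DNAJC9 was 0.00 without shCHAF1B-1 replicate 1 (range -0.06 to 0.00). With libraries left out in turn the ratio differences were -3.02 to -2.87 (CHAF1B to CHAF1A), 0.79 to 0.91 (ASF1A to ASF1B) and 0.14 to 0.18 (RBBP7 to RBBP4); with 2 shGFP libraries the smallest p possible is 0.0714, so no pair could pass. Divided by the longest transcript instead of all exons, levels in shGFP were 61.5 (RBBP7), 53.9 (NASP), 25.4 (HAT1), 19.6 (ASF1B), 15.3 (CHAF1A), 14.2 (RBBP4), 13.3 (TONSL), 10.4 (ASF1A), 8.74 (DNAJC9) and 8.41 (CHAF1B) CPM per kb, so the order below NASP depends on the length used.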
